A study of Mus musculus with 3 samples.

Results

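The 10 genes described here encode TGF-beta family ligands, the family of latent TGF-beta binding proteins and the receptors that bind TGF-beta. They were taken as a list of symbols, matched by Ensembl ID, out of 32285 genes counted in single cells of healing mouse skin. The ligand genes were *Tgfb1*, *Tgfb2*, *Tgfb3* and *Inhba*, the latency protein genes were *Ltbp1*, *Ltbp2*, *Ltbp3* and *Ltbp4*, and the receptor genes were *Tgfbr1* and *Tgfbr2*. The tissue was wounded skin of adult male mice of the inbred strain C57BL/6J, with no engineered allele and no drug named for these samples, taken on Day 3, Day 7 or Day 14 after injury. Tissue of several wounds was pooled and each day was 1 library, so the day and the library cannot be told apart, nothing was replicated and no p-value is given. The study used the libraries to follow which cells populate the wound and which genes they use as it heals.

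TGF-beta is secreted in a latent form, in which its propeptide stays wrapped around the mature dimer. Latent TGF-beta binding proteins (LTBPs) tie this complex to fibrillin microfibrils and fibronectin, from which integrins and proteases release it, and free TGF-beta assembles the type II and type I receptors into a complex that phosphorylates Smad2 and Smad3. *Inhba* encodes the beta-A chain of activin A, which signals through activin receptors to the same Smads. In skin wounds TGF-beta and activin are known as inducers of granulation tissue, myofibroblasts and scar.

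The libraries held 5158 to 22924 barcodes and 38133650 to 120940799 unique molecular identifiers (UMIs), by which single captured transcripts are counted. After filters, 37460 cells remained, 4360 from Day 3, 19590 from Day 7 and 13510 from Day 14, and 173 of 44520 barcodes occurred in 2 libraries. Cells were placed in classes by marker genes, and a class carries the suffix "-like" because the names rest on markers alone. The fibroblast-like class held 401, 5872 and 7295 cells on Days 3, 7 and 14, in clusters that carried 6 to 8 of the 8 fibroblast markers, and the macrophage-like class held 2586, 8605 and 2942, in clusters that carried 9 or 10 of the 10 macrophage markers. Levels are UMIs of a gene per 1000000 UMIs (CPM), summed over the cells of a class in a library, and the values in brackets are exact Poisson 95% intervals, which cover counting error only. Values are given for classes with at least 50 cells of a day, which left out endothelial cell-like, pericyte-like and T cell-like cells on Day 3, epithelial cell-like and Schwann cell-like cells on Days 3 and 7, neutrophil-like cells on Day 14 and mast cell-like cells on every day. Day 3 fibroblast-like cells were few and deep, with a median of 44284 UMIs against 10373 on Day 7 and 9741 on Day 14.

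**Figure D1:**
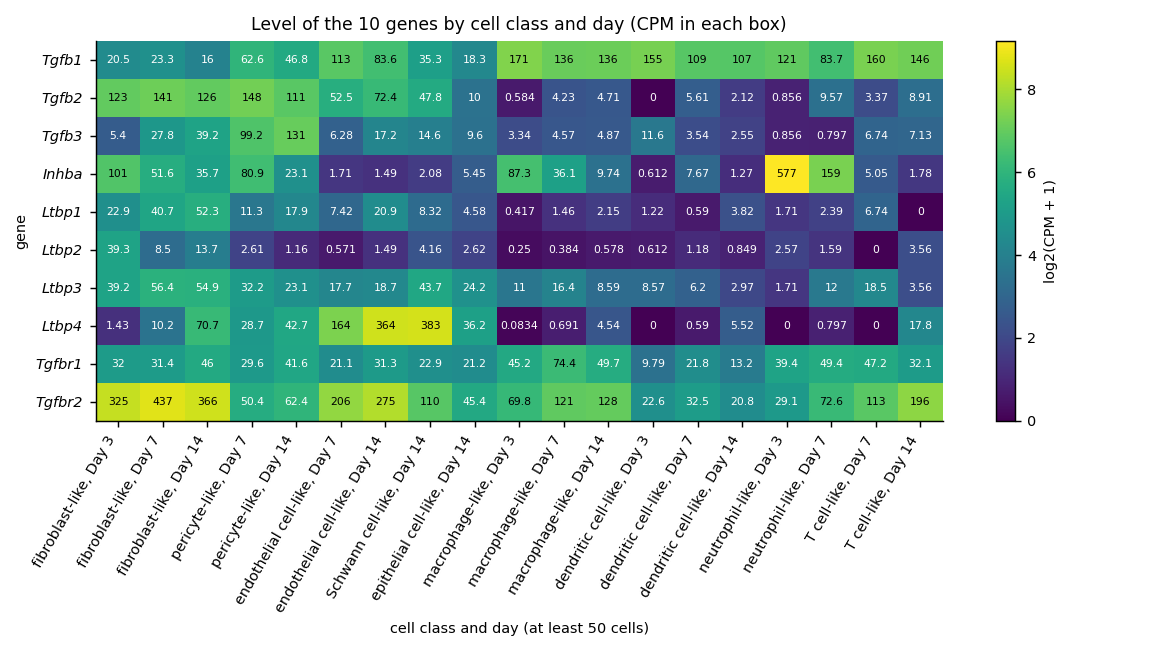
Heat map of CPM for the 10 genes (rows) in each cell class and day with at least 50 cells (columns), coloured by log2(CPM + 1), with the CPM printed in each box. *Tgfb1* was spread over leukocyte and endothelial classes, *Tgfb2* and *Tgfbr2* were high in fibroblast-like cells, *Inhba* reached 577 CPM in Day 3 neutrophil-like cells, and *Ltbp4* reached 364 CPM in endothelial cell-like and 383 CPM in Schwann cell-like cells on Day 14.

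The *Tgfb1* and *Tgfb2* ligand genes had opposite homes in the wound. *Tgfb1* (ENSMUSG00000002603, mm10 chr7:25687002-25705077, plus strand) encodes TGF-beta 1, the isoform best known from leukocytes and platelets, and *Tgfb2* (ENSMUSG00000039239, mm10 chr1:186622792-186705989, minus strand) encodes TGF-beta 2. The 100 bases before the annotated start of each gene are shown 5′ to 3′ on the strand of the gene because these 2 ligands divide between the classes, with *Inhba* beside them as the ligand that was high in yet another class, the neutrophil-like cells. Sequences are from RefSeq on GRCm38.p6, and capitals mark TATAAA, the core of the TATA box, searched on the strand of the gene.
Tgfb1, chr7:25686902-25687001, plus strand: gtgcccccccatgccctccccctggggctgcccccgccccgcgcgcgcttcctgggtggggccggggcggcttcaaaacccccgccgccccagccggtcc
Tgfb2, chr1:186705990-186706089, minus strand: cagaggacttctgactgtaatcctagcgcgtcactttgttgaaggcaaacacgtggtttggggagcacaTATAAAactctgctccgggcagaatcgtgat
Inhba, chr13:16011751-16011850, plus strand: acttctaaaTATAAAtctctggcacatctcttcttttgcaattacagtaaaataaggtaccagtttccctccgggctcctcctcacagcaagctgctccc
The window of *Tgfb1* was 82% G or C and held no TATAAA, that of *Tgfb2* was 49% G or C with TATAAA beginning 31 bases before the start, and that of *Inhba* was 44% G or C with TATAAA beginning 91 bases before it. Promoters were found for 9 of the 10 genes, with 13 annotated starts, of which 2 held TATAAA, against 3.799% of 32851 promoters, whose median G or C content in this window was 55%. The AP-1 motif TGANTCA, read on both strands over 300 bases, was matched at 1 of the 13 starts, that of *Ltbp3*, and in 7.81% of all promoters. A match describes letters and not a bound factor, and no binding was measured here.

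In macrophage-like cells *Tgfb1* stood at 171 (164 to 179), 136 (131 to 140.3) and 136 (129.8 to 143) CPM on Days 3, 7 and 14. In fibroblast-like cells it stood at 20.5 (18.5 to 22.6), 23.3 (22.1 to 24.5) and 16.0 (15.1 to 16.9) CPM. Macrophage-like cells were above fibroblast-like cells on every day, with intervals that did not overlap, and the log2 ratio of fibroblast-like over macrophage-like cells was -3.06 on Day 3, -2.54 on Day 7 and -3.09 on Day 14. Within macrophage-like cells the Day 3 level was above the other days, whose intervals overlapped. The log2 ratio of Day 7 over Day 3 was -0.34 there, but only -0.08 when CPM were scaled without the 50 most abundant genes.

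Other leukocytes carried *Tgfb1* too. Dendritic cell-like cells held 155, 109 and 107 CPM on Days 3, 7 and 14, neutrophil-like cells held 121 and 83.7 CPM on Days 3 and 7, and T cell-like cells held 160.0 and 146 CPM on Days 7 and 14. On Day 7, 71.1% of dendritic cell-like cells lay in cluster 11, at 129.5 CPM (116 to 144) of *Tgfb1*. Cluster 24 stood at 49.7 CPM (36.0 to 67.0). Cluster 11 carried 5 of the 10 dendritic cell markers. Its marker score, defined with cluster 18 further on, was 3.15 beside 3.09 for macrophage markers. In cluster 24 these scores were 5.10 and 0.933. The order on Day 14 ran from T cell-like and macrophage-like cells, whose intervals overlapped, through dendritic cell-like (107 CPM) and endothelial cell-like (83.6 CPM) cells, whose intervals also overlapped, to pericyte-like (46.8 CPM), Schwann cell-like (35.3 CPM), epithelial cell-like (18.3 CPM) and fibroblast-like cells (16.0 CPM), of which each neighbouring pair had overlapping intervals. Fibroblast-like cells, rich in UMIs, still held 13.6%, 24.6% and 32.6% of all *Tgfb1* UMIs on Days 3, 7 and 14, while macrophage-like cells held 69.7%, 58.7% and 46.7%. Of the UMIs of all genes, fibroblast-like cells held 55.8%, 63.3% and 74.3% and macrophage-like cells 34.0%, 25.9% and 12.5%.

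*Tgfb2* was the mirror image. In fibroblast-like cells it stood at 123 (118 to 128), 141 (138 to 144) and 126 (123 to 129) CPM on Days 3, 7 and 14, and the intervals of Days 3 and 14 overlapped. In macrophage-like cells it stood at 0.584, 4.23 and 4.71 CPM. Fibroblast-like cells held 95.7%, 94.3% and 94.5% of all *Tgfb2* UMIs. Pericyte-like cells, the mural cells of small vessels, were at a like level, with 148 (126 to 172) and 111 (96.3 to 128) CPM on Days 7 and 14, and their intervals overlapped those of fibroblast-like cells on both days. Endothelial cell-like cells held 52.5 and 72.4 CPM on those days.

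*Tgfb3* (ENSMUSG00000021253, mm10 chr12:86056745-86079041, minus strand) encodes TGF-beta 3, an isoform often discussed for its part in scar quality. In fibroblast-like cells it stood at 5.40 (4.42 to 6.53), 27.8 (26.6 to 29.2) and 39.2 (37.7 to 40.7) CPM on Days 3, 7 and 14, with no overlap between any 2 days. The step from Day 3 to Day 7 was log2 2.37 (2.08 to 2.66) and that from Day 7 to Day 14 was log2 0.49 (0.41 to 0.58). Fibroblast-like cells as a whole thus held more of it on each later day. Among classes with at least 50 cells on Day 3, dendritic cell-like cells held the most, at 11.6 (7.00 to 18.2) CPM. This value rested on 19 UMIs and lay above that of fibroblast-like cells with no overlap. Pericyte-like and endothelial cell-like cells, with 10 cells each on that day, were left out of this order, so a higher level there is not excluded. On Days 7 and 14 the class with the highest level was pericyte-like, at 99.2 (81.8 to 119) and 131 (114 to 149) CPM. Macrophage-like cells stayed between 3.34 and 4.87 CPM.

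*Inhba* (ENSMUSG00000041324, mm10 chr13:16011851-16031621, plus strand) was highest in neutrophil-like cells, which held 577 (534 to 622) CPM on Day 3 and 159 (137 to 182) CPM on Day 7, a log2 ratio of -1.86 (-2.10 to -1.63). On Day 3 fibroblast-like cells held 101 (96.4 to 105) CPM and macrophage-like cells held 87.3 (82.1 to 92.7) CPM, while dendritic cell-like cells of the same library held 0.612 CPM, from 1 UMI. Leukocytes of the same wound therefore differed widely in this gene. After each cell was thinned to 500 UMIs, 10.4% of neutrophil-like cells on Day 3 had an *Inhba* UMI, against 3.49% of fibroblast-like, 3.13% of macrophage-like and 0 of 236 dendritic cell-like cells, for which the exact upper limit was 1.55%. The unthinned shares of these classes, in the same order, were 17.8%, 34.4%, 7.62% and 0.424%, and their cells held a median of 1224, 44284, 4176 and 7204.5 UMIs. At equal depth the neutrophil-like share was the highest, and at full depth the deep fibroblast-like cells had the highest share.

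*Inhba* was also lower on Day 14 than on Day 7 in macrophage-like and pericyte-like cells. Macrophage-like cells stood at 36.1 (33.8 to 38.5) and 9.74 (8.06 to 11.7) CPM on those days, and pericyte-like cells stood at 80.9 (65.3 to 99.1) and 23.1 (16.5 to 31.5) CPM, a log2 ratio of -1.81 (-2.38 to -1.26). Fibroblast-like cells stood at 51.6 (49.8 to 53.4) and 35.7 (34.3 to 37.1) CPM, but this step turned upward when each cell counted equally, as given with the clusters further on. The UMIs of *Inhba* were divided on Day 3 between fibroblast-like (52.4%), macrophage-like (27.7%) and neutrophil-like cells (17.9%). In the same order these classes held 55.8%, 34.0% and 3.32% of all UMIs of that day. Only the neutrophil-like share of *Inhba* was thus above its share of all UMIs. On Day 14 fibroblast-like cells held 92.8% of *Inhba* UMIs and 74.3% of all UMIs. The *Inhba* share was 51.3% without cluster 18, whose place in the class is not settled and which is described further on. Without that cluster the Day 14 level of the class was 20.3 (19.3 to 21.4) CPM.

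**Figure D2:**
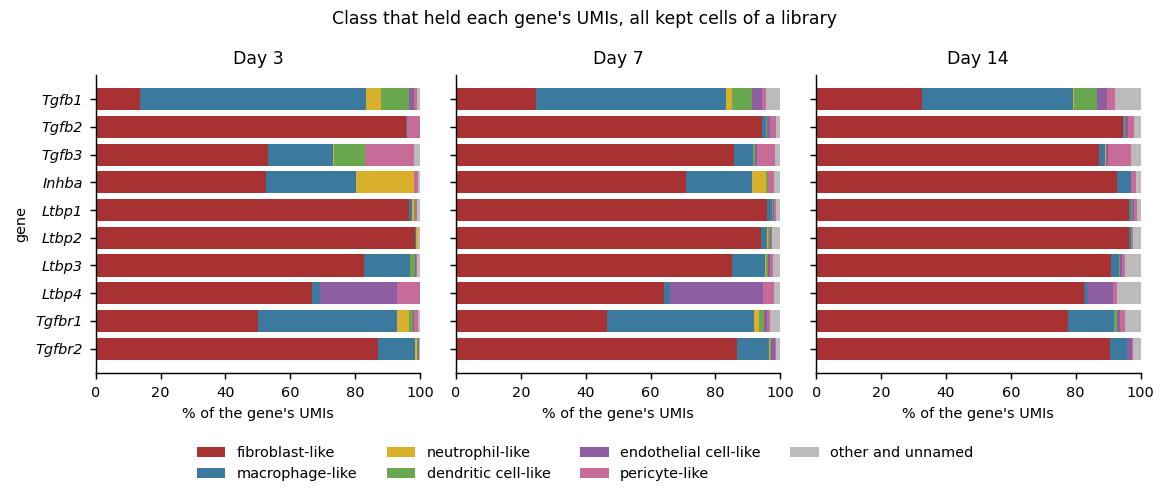
Share of each gene's UMIs (x axis, percent) held by each class among all kept cells of the Day 3, Day 7 and Day 14 libraries, as stacked bars that add to 100. Fibroblast-like cells held at least 94.3% of *Tgfb2*, 96.0% of *Ltbp1* and 94.1% of *Ltbp2* UMIs on each day, or on Day 14 90.9%, 81.9% and 88.4% without cluster 18, whereas *Tgfb1* was held to 69.7% by macrophage-like cells on Day 3, and *Inhba* passed from 3 classes on Day 3 to 92.8% in fibroblast-like cells on Day 14, or 51.3% without cluster 18.

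The 4 latency protein genes had most of their UMIs in fibroblast-like cells but followed different courses. Fibroblast-like cells held 55.8%, 63.3% and 74.3% of all UMIs on Days 3, 7 and 14. For *Ltbp4* on Day 7 the share without cluster 18 was 63.5%, no more than the size and depth of the class would give. *Ltbp1* (ENSMUSG00000001870, mm10 chr17:75005568-75392512, plus strand) encodes the LTBP that ties the latent complex to fibronectin and fibrillin. In fibroblast-like cells it stood at 22.9 (20.8 to 25.1), 40.7 (39.1 to 42.3) and 52.3 (50.7 to 54.0) CPM on Days 3, 7 and 14, and these cells held 96.6%, 96.0% and 96.4% of its UMIs. Without cluster 18, described further on, the Day 14 level was 45.8 (44.2 to 47.4) CPM and the share was 81.9%. Its intervals did not overlap between days, but neither step reached 2-fold, with log2 ratios of 0.83 and 0.36, except that the first was 1.01 when CPM were scaled by the median of ratios and 1.06 when they were scaled without the 50 most abundant genes. *Ltbp1* was not higher on Day 14 within any of the 3 clusters with at least 100 cells on both days, as given with the clusters further on. Most Day 7 cells of the class lay outside these clusters, so where the second step arose was not tested.

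*Ltbp2* (ENSMUSG00000002020, mm10 chr12:84783212-84876532, minus strand) encodes the family member that binds fibrillin but not latent TGF-beta. Its fibroblast-like level was 39.3 (36.6 to 42.1), 8.50 (7.80 to 9.25) and 13.7 (12.8 to 14.5) CPM on Days 3, 7 and 14. The log2 ratio of Day 7 over Day 3 was -2.21 (-2.37 to -2.05), and that of Day 14 over Day 7 was 0.68 (0.53 to 0.84). *Ltbp2* was thus highest on the earliest day, the opposite of *Ltbp1* and *Ltbp4*.

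*Ltbp3* (ENSMUSG00000024940, mm10 chr19:5740904-5758532, plus strand) encodes an LTBP that binds latent TGF-beta and is needed in the skeleton. Fibroblast-like cells held 39.2, 56.4 and 54.9 CPM on Days 3, 7 and 14, and the ratio of the last 2 values included no difference at log2 -0.04 (-0.10 to 0.03). Macrophage-like cells held 11.0, 16.4 and 8.59 CPM.

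*Ltbp4* (ENSMUSG00000040488, mm10 chr7:27305136-27337692, minus strand) encodes the LTBP known for its part in elastic fibre assembly. In fibroblast-like cells it stood at 1.43 (0.948 to 2.06), 10.2 (9.39 to 11.0) and 70.7 (68.8 to 72.7) CPM on Days 3, 7 and 14. The steps were of like size, with log2 ratios of 2.83 (2.29 to 3.43) and 2.80 (2.68 to 2.92). Endothelial cell-like cells held more, at 164 (146 to 184) and 364 (333 to 398) CPM on Days 7 and 14, and Schwann cell-like cells held 383 (329 to 442) CPM on Day 14, an interval that overlapped the endothelial one. The order on Day 14 then went on through fibroblast-like (70.7 CPM), pericyte-like (42.7 CPM) and epithelial cell-like cells (36.2 CPM), the last 2 with overlapping intervals. Endothelial cell-like cells numbered only 228 and 230, and they held 28.6% of *Ltbp4* UMIs on Day 7 and 7.89% on Day 14.

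The type II receptor gene *Tgfbr2* (ENSMUSG00000032440, mm10 chr9:116084293-116175360, minus strand) encodes the receptor that binds the ligand first. It was highest in fibroblast-like cells, at 325 (317 to 333), 437 (431 to 442) and 366 (362 to 371) CPM on Days 3, 7 and 14. Endothelial cell-like cells followed with 206 and 275 CPM on Days 7 and 14. Macrophage-like cells held 69.8 (65.2 to 74.7), 121 (117 to 126) and 128 (122 to 135) CPM on Days 3, 7 and 14, so Day 3 was the lowest and the intervals of the later days overlapped.

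*Tgfbr1* (ENSMUSG00000007613, mm10 chr4:47353222-47414931, plus strand) encodes the type I receptor, the kinase that phosphorylates Smad2 and Smad3. Fibroblast-like cells held 32.0, 31.4 and 46.0 CPM and macrophage-like cells held 45.2, 74.4 and 49.7 CPM on Days 3, 7 and 14. The log2 ratio of fibroblast-like over macrophage-like cells was -1.24 (-1.33 to -1.15) on Day 7 and -0.11 (-0.24 to 0.02) on Day 14, when the interval included no difference. Taken as a whole, the classes thus stood apart on Day 7 and closer together on Day 14. Without cluster 18, described further on, fibroblast-like cells held 44.1 (42.6 to 45.7) CPM on Day 14. That interval lay just under the macrophage-like one, 45.8 to 53.8 CPM. Macrophage-like clusters 1, 5, 7 and 15 had at least 100 cells on both days. For clusters 1, 5 and 15 the log2 ratios of Day 14 over Day 7 were -0.29, -0.24 and -0.21. Their intervals included no difference but reached down to -0.74, -0.51 and -0.90, so a lower Day 14 level there is neither shown nor excluded. Cluster 7 was higher on Day 14, at log2 0.61 (0.28 to 0.94). Cluster 0 held 35.6% of Day 7 macrophage-like cells and 43.9% of their *Tgfbr1* UMIs, and could not be compared. Where the class difference arose was thus not tested.

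**Figure D3:**
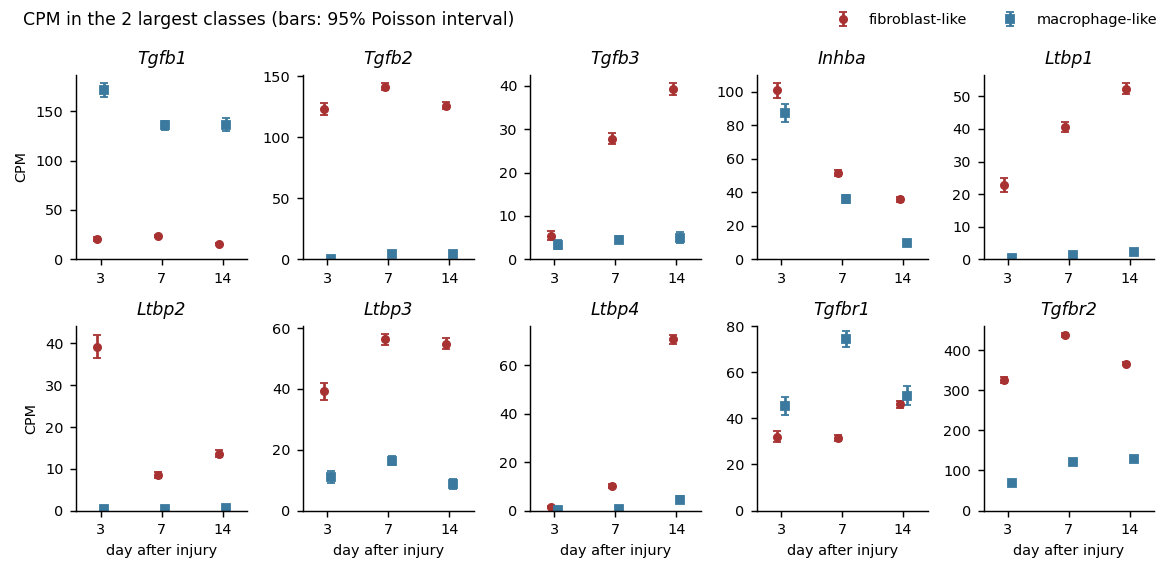
CPM (y axis, from 0) of each gene in fibroblast-like (circles) and macrophage-like (squares) cells on Days 3, 7 and 14 (x axis), 1 library per day, with bars for exact Poisson 95% intervals. *Tgfb3*, *Ltbp1* and *Ltbp4* were higher on each later day in fibroblast-like cells as a whole, *Inhba* was lower on each later day in macrophage-like cells, and *Tgfbr1* was highest on Day 7 in macrophage-like cells at 74.4 CPM.

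Each comparison was then counted over all genes, calling a gene different at 2-fold or more where the mean CPM of the 2 sums was at least 5. In fibroblast-like cells, all 10 genes passed that mean for both steps. From Day 3 to Day 7, 2 of them (*Tgfb3* and *Ltbp4*) were called higher, against 4.89% of 9510 genes, and 1 (*Ltbp2*) lower, against 9.11%. *Ltbp4*, at 1.43 CPM on Day 3, passed the mean only through Day 7, which fixed its call. From Day 7 to Day 14, 1 (*Ltbp4*) was called higher, against 3.10% of 9248 genes, and 0 lower, against 4.21%. The median log2 ratio of the 10 genes was 0.31 beside -0.19 over all genes for the first step, and 0.16 beside -0.16 for the second.

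In macrophage-like cells 5 of the 10 genes passed the mean: *Tgfb1*, *Inhba*, *Ltbp3*, *Tgfbr1* and *Tgfbr2*. From Day 3 to Day 7, 0 were called higher, against 3.66% of 8741 genes, and *Inhba* was the 1 called lower at log2 -1.27 (-1.40 to -1.15), against 4.84%. From Day 7 to Day 14, 0 were called higher, against 2.79% of 8793 genes, and *Inhba* was again the 1 called lower at log2 -1.89 (-2.18 to -1.61), against 3.93%. *Tgfbr1* and *Tgfbr2* were higher on Day 7 than on Day 3 by log2 0.72 and 0.80, under the 2-fold limit, and *Tgfbr2* reached log2 1.05 when CPM were scaled without the 50 most abundant genes.

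Differences between the classes were far more common over all genes. On Day 3, 8 of the 10 genes passed the mean, 5 were higher in fibroblast-like cells (*Tgfb2*, *Ltbp1*, *Ltbp2*, *Ltbp3* and *Tgfbr2*), against 27.2% of 9728 genes, and *Tgfb1* was lower, against 22.3%. On Day 7, 9 passed, 6 were higher (*Tgfb2*, *Tgfb3*, *Ltbp1*, *Ltbp3*, *Ltbp4* and *Tgfbr2*), against 20.6% of 9664 genes, and *Tgfb1* and *Tgfbr1* were lower, against 20.4%. On Day 14, all 10 passed, 8 were higher, against 20.8% of 9404 genes, *Tgfb1* was lower, against 21.5%, and *Tgfbr1* was called neither way. Some genes passed the mean only through the fibroblast-like sum, with under 5 CPM in macrophage-like cells. They were *Tgfb2*, *Ltbp1* and *Ltbp2* on Day 3, and *Tgfb2*, *Tgfb3*, *Ltbp1* and *Ltbp4* on Day 7. On Day 14 they were *Tgfb2*, *Tgfb3*, *Ltbp1*, *Ltbp2* and *Ltbp4*. A very low macrophage-like level, as for *Ltbp1* (0.417, 1.46 and 2.15 CPM), fixed the call of a gene that passed. The shares over all genes include such genes. *Inhba* was called higher in fibroblast-like cells on Day 14, at log2 1.87 (1.61 to 2.15), or 1.06 without cluster 18, which is described with the clusters further on. Its ratio on Days 3 and 7 was 0.21 and 0.52, each of which turned negative (-0.15 and -0.14) when cells were averaged with equal weight. By cells thinned to 500 UMIs, the share with a UMI was larger in fibroblast-like than in macrophage-like cells for 7 of the 10 genes on Day 3, 8 on Day 7 and 9 on Day 14. Of the 8, 9 and 10 genes that passed the mean, these were 6, 7 and 9, against 53.7%, 48.2% and 49.4% of all genes that passed, for which the share expected at 500 UMIs was computed without a draw.

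**Figure D4:**
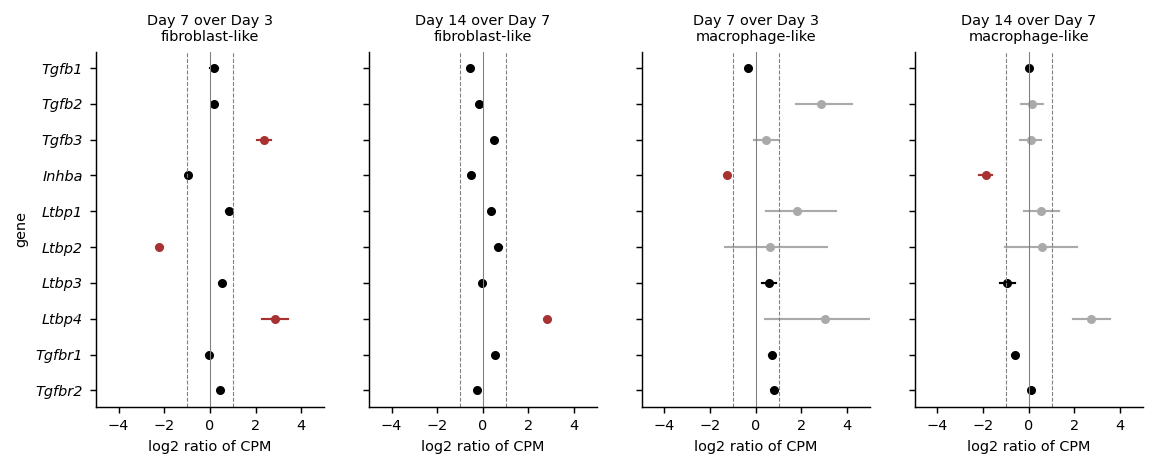
Log2 ratio of CPM (x axis) between days for each gene (rows) in fibroblast-like and macrophage-like cells, with 95% intervals of the ratio as lines, cut at 5, and dashed lines at 2-fold. Red points passed 2-fold with a mean of at least 5 CPM (*Tgfb3*, *Ltbp4* and *Ltbp2* in fibroblast-like cells, *Inhba* in macrophage-like cells), black points did not pass 2-fold, and grey points were under the mean.

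Several low values in macrophage-like cells were of the size of fibroblast markers there. The 8 fibroblast markers, which macrophages should lack, stood in macrophage-like cells at a median of 0.677%, 3.50% and 3.56% of their fibroblast-like level on Days 3, 7 and 14. Their summed level in macrophage-like cells was 412, 3557 and 4814 CPM, and 0 of the 8 were undetected. The single markers ranged from 2.53% to 4.58% on Day 7 and from 2.61% to 4.30% on Day 14. *Tgfb2* stood at 2.99% and 3.74% of its fibroblast-like level on these days, *Ltbp1* at 3.59% and 4.10%, and *Ltbp2* at 4.52% and 4.23%. These 3 genes lay within the range of the markers on Days 7 and 14, so their values there cannot be told apart from background. The value of *Ltbp2* was also imprecise, at 0.384 (0.184 to 0.706) CPM on Day 7. On Day 3 the single markers ranged from 0.496% to 0.955%, *Tgfb2* stood at 0.474% and *Ltbp2* at 0.637%, and *Ltbp1* stood above the range at 1.82%, from 5 UMIs.

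Other genes of the list stood above that range in macrophage-like cells. *Tgfbr2* stood at 21.5%, 27.8% and 35.0% of its fibroblast-like level on Days 3, 7 and 14, and *Ltbp3* at 28.1%, 29.1% and 15.6%. *Ltbp4* stood at 6.81% and 6.42% on Days 7 and 14, somewhat above the highest single marker, and rested on 1 UMI on Day 3. The range is scaled to fibroblast-like cells alone, while endothelial cell-like cells held more *Ltbp4*, at 164 and 364 CPM on Days 7 and 14. The comparison therefore cannot separate *Ltbp4* in macrophage-like cells from background. In neutrophil-like cells the fibroblast markers stood at a median of 1.202% on Day 3 and 9.97% on Day 7 of their fibroblast-like level, whereas *Inhba* there was above its fibroblast-like level on both days. In the reverse direction the 10 macrophage markers stood in fibroblast-like cells at a median of 0.616%, 1.71% and 0.532% of their macrophage-like level, with *Csf1r* the highest at 9.51%, 3.39% and 3.15%. *Tgfb1* stood above each of these, at 11.9%, 17.2% and 11.7%.

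The fibroblast-like class held clusters that differed widely in these genes. None of the 10 genes was used to cluster the cells, and clusters are given by number with their leading genes, as a description. On Day 14 cluster 18, led by *Slc26a7*, *Prlr*, *Pappa2*, *Wif1*, *Lef1* and *Bmp4* and carrying 6 of the 8 fibroblast markers, held 723 cells, 9.91% of the class. Its fibroblast marker score, the mean log2 level of the markers above the lower quartile of all clusters, was 1.87, against 4.21 to 5.31 in the other fibroblast-like clusters. In this mean over all markers of a class, a marker added nothing if it missed a limit of the naming rule. These limits were at least 10% of cells and at least 1 log2 above that quartile. The study set mesenchymal cells marked by *Bmp4* apart from fibroblasts, so whether cluster 18 belongs with fibroblasts is not settled here. Without cluster 18 the Day 14 levels of the class were lower for *Inhba* and *Ltbp1*, as given with these genes, and the intervals with and without it overlapped for the other 8 genes. The share of Day 14 UMIs held by the class was then 90.9% for *Tgfb2*, 88.4% for *Ltbp2*, 84.6% for *Tgfb3*, 72.4% for *Tgfbr1* and 30.1% for *Tgfb1*. It stood at 548 CPM (517 to 580.3) of *Inhba*, against 5.52 to 34.5 CPM in the other 4 clusters, and held 44.7% of the class's *Inhba* UMIs. The same cluster had the highest *Ltbp1*, at 271 CPM (249 to 294), the highest *Tgfbr1*, at 109 CPM (95.8 to 125), and the highest *Tgfb1*, at 42.4 CPM (34.0 to 52.1), of the 5 clusters of Day 14. It had the lowest *Tgfbr2*, at 113 CPM (98.9 to 128). Transcripts of the activin chain, the type I receptor and *Ltbp1* were thus high, and those of the type II receptor low, in the same cluster, and whether single cells carried them together was not measured.

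This cluster bears on the course of *Inhba* in the class. The ratio of Day 14 over Day 7 was log2 -0.53 (-0.61 to -0.46) over all fibroblast-like cells. Without cluster 18 it was -1.33, with each library clustered alone it was -1.17, and as a mean over cells of equal weight it was 0.64, so the direction of this step is not settled by these libraries. Cells of cluster 18 had a median of 2353 UMIs on Day 14, against 9741 for the class.

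On Day 7 *Inhba* was highest in 2 fibroblast-like clusters. Cluster 17 (*Cxcl5*, *Saa3*, *Serpinb2* and the cycling gene *Top2a*) stood at 113 CPM (104 to 122) and cluster 12 (*Tnn*, *Col12a1*, *Acta2*, *Lrrc15*) at 110.3 CPM (105 to 116), against 1.74 to 61.1 CPM in the other 5 clusters. Cluster 12 was also the highest of that day for *Tgfb2* (177 CPM) and *Tgfb3* (56.7 CPM (52.9 to 60.7)) and the lowest for *Ltbp1* (15.2 CPM) and *Tgfbr2* (305 CPM), with intervals that overlapped those of cluster 6, of 109 cells, for all of these but *Ltbp1*. *Inhba*, *Tgfb2* and *Tgfb3* were thus high in the cluster that carried the contractile gene *Acta2*, but not in that cluster alone. Cluster 17 was alike in *Inhba* and had the second-highest *Tgfb2*, at 158 CPM. It was above cluster 12 in *Tgfb1*, at 46.2 CPM (40.9 to 52.0) against 37.0 CPM (33.9 to 40.2). Clusters 14 and 19, both led by *Akr1c18* and carrying *Pi16*, a gene of unspecialised fibroblasts, had the highest *Tgfbr2* and *Ltbp1* of the day and low *Tgfb1* and *Inhba*, with *Tgfbr2* at 589.8 and 749 CPM, *Ltbp1* at 107 and 104 CPM, *Tgfb1* at 7.22 and 10.6 CPM and *Inhba* at 2.06 and 1.74 CPM. *Tgfb2* was not low in both, with 119 CPM (97.9 to 142) in cluster 14 and 70.9 CPM (64.2 to 78.1), the lowest of the day, in cluster 19, with an interval that overlapped that of cluster 3 (75.1 CPM (68.1 to 82.7)). The other latency protein genes did not share the course of *Ltbp1*. *Ltbp2* was at 0 CPM, with an exact upper limit of 3.804 CPM, in cluster 14 and at 0.695 CPM in cluster 19. In the same order *Ltbp3* stood at 55.7 and 53.2 CPM and *Ltbp4* at 8.25 and 5.91 CPM, and the class stood at 8.50, 56.4 and 10.2 CPM of *Ltbp2*, *Ltbp3* and *Ltbp4*.

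*Ltbp4* was highest in cluster 6 (*Thbs4*, *Cilp*, *Eln*) on Day 14, at 95.2 CPM (91.5 to 98.9), followed by cluster 3 (*Mgp*, *Gdf10*) at 79.6 CPM, and lowest in cluster 14 at 16.8 CPM. *Ltbp2* on that day was highest in cluster 9 (*Igfbp2*, *Coch*, *Tnmd*), at 47.7 CPM (44.0 to 51.6), an interval that overlapped that of cluster 18 (39.0 CPM (31.0 to 48.4)), and stood at 0.538 CPM in cluster 14. Cluster 9 was also highest for *Tgfb2*, at 213 CPM. *Ltbp3* was the most even of the 10 across the Day 14 clusters, ranging 1.71-fold from 37.8 to 64.6 CPM.

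Clusters present on 2 days allow a step to be read within a cluster. Cluster 17 made up 91.0% of fibroblast-like cells on Day 3 and 6.93% on Day 7. Within it *Tgfb3* was log2 2.50 (2.13 to 2.88) and *Ltbp4* log2 2.56 (1.85 to 3.31) higher on Day 7, and *Ltbp2* was lower at log2 -1.63 (-1.98 to -1.29), in the direction of the whole class. For *Inhba*, the log2 ratio within cluster 17 was 0.10 (-0.03 to 0.22), against -0.97 in the class, and for *Ltbp1* it was 0.248 (-0.03 to 0.52), against 0.83. The class differences of those 2 genes between Days 3 and 7 were thus not seen within the cluster, whose share of the class differed between the days. *Tgfb1* was higher within cluster 17 by log2 1.14 (0.92 to 1.37), against 0.19 in the class. The step from Day 7 to Day 14 could be read within clusters 3, 6 and 14, which held 10.4%, 1.86% and 2.16% of fibroblast-like cells on Day 7 and 26.1%, 30.4% and 11.0% on Day 14, so most Day 7 cells of the class lay outside them. *Ltbp4* was higher within cluster 3 by log2 1.27 (1.05 to 1.497) and within cluster 6 by log2 1.83 (1.30 to 2.42), against 2.80 in the class. In cluster 14 its log2 ratio was 1.03, with a lower bound close to 0. *Ltbp1* did not share the direction of the class. Its log2 ratio was -0.51 (-0.79 to -0.23) within cluster 3 and -0.86 (-1.27 to -0.42) within cluster 6, and that of cluster 14, -0.26 (-0.56 to 0.05), included no difference, against 0.36 in the class and 0.18 in the class without cluster 18. Its higher Day 14 level in the class was thus not seen within these 3 clusters, and cluster 18, the highest in *Ltbp1*, had under 100 cells on Day 7. *Ltbp2* was lower within cluster 6 at log2 -1.78 (-2.38 to -1.13), against 0.68 in the class, and its interval in cluster 3 included no difference. *Ltbp3* was lower in all 3, at log2 -0.42 (-0.58 to -0.26), -0.53 (-0.83 to -0.23) and -0.56 (-0.98 to -0.11), against -0.04 in the class. *Tgfb3* was higher within cluster 3 at log2 0.62 (0.38 to 0.87), and its ratios in clusters 6 and 14, 0.19 (-0.26 to 0.67) and -0.04 (-0.80 to 0.81), included no difference, against 0.49 in the class. *Inhba* was higher within cluster 3 at log2 1.11 (0.46 to 1.84) and lower within cluster 6 at log2 -0.83 (-1.19 to -0.44).

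**Figure D5:**
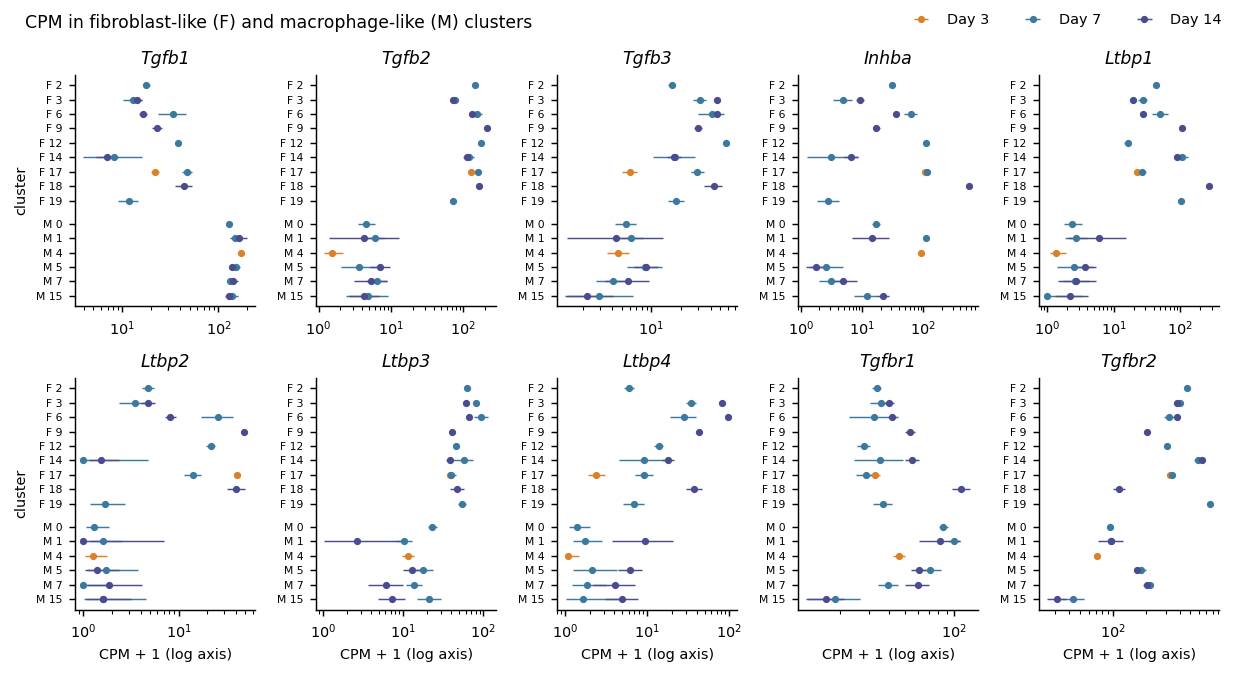
CPM + 1 on a log axis (x) of each gene in fibroblast-like (F) and macrophage-like (M) clusters (y axis, by number) with at least 100 cells of a day, coloured by day, with bars for exact Poisson 95% intervals of the CPM. *Inhba* stood out in cluster F 18 on Day 14 (548 CPM), in clusters F 12 and F 17 and in cluster M 1 on Day 7 (110.0 CPM), while *Tgfb1* was nearly level over macrophage-like clusters.

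Among macrophage-like cells *Inhba* was concentrated and *Tgfb1* was not. On Day 7 cluster 1, led by the monocyte genes *Ly6c2*, *Cx3cr1* and *Ccr2*, stood at 110.0 CPM (102 to 118) of *Inhba*, and the other 4 clusters of that day stood at 1.51 to 15.8 CPM. Its 2615 cells, 30.4% of the class, held 76.5% of the class's *Inhba* UMIs. On Day 3 the class was nearly 1 cluster, number 4 (*Chil3*, *Cxcr4*, *Arg1*), at 91.1 CPM. Between Day 7 and Day 14 the log2 ratio was -3.05 (-4.27 to -2.06) within cluster 1, and it was 0.97 (0.19 to 1.83) within cluster 15 (*Retnla*, *Ear2*, *Lyz1*), so the direction seen in the class was not shared by every cluster. *Tgfb1* ranged from 128 to 151 CPM over the 5 clusters of Day 7 and from 129 to 163 CPM over the 4 of Day 14.

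The receptor genes divided the macrophage-like clusters. On Day 7 *Tgfbr2* was high in cluster 7 (*Cd163*, *Cbr2*, *Lyve1*; 216 CPM (203 to 229)) and cluster 5 (*Slamf7*, *Il10*, *Ccl8*; 179 CPM (163 to 196)) and low in cluster 15 (42.5 CPM (32.9 to 53.9)). *Tgfbr1* was highest in cluster 1 (99.3 CPM (91.8 to 107)) and lowest in cluster 15 (17.7 CPM (11.8 to 25.7)). On Day 14 cluster 15 was again lowest for both, with 15.4 CPM of *Tgfbr1* and 29.8 CPM of *Tgfbr2*. Cells with tissue-resident genes such as *Cd163* and *Lyve1* thus held the most type II receptor transcript.

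The genes most like each ligand gene over the 19 class-by-day sums were ranked by Pearson's r of log2(CPM + 1) among 10476 genes with a mean of at least 5 CPM. The sums share libraries and classes, so r is a description. For *Tgfb1* they were *Arhgap26*, *St8sia4* and *Git2* (0.95, 0.95 and 0.94), and for *Tgfb2* they were *Rhoj*, *Triqk* and *Cald1* (0.98, 0.97 and 0.97). For *Tgfb3* they were *Ednra*, *Cyth3* and *Pde3a* (0.89, 0.88 and 0.88), and for *Inhba* they were *Selenon*, *Irak3* and *Sfxn5* (0.83, 0.83 and 0.82). Between members, *Tgfb2* and *Ltbp1* had r of 0.84, and *Tgfb1* had r of -0.72 with *Tgfb2* and -0.80 with *Ltbp2*.

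The wider pathway was followed in 6 lists, whose counts stand beside the shares over all genes. In fibroblast-like cells 4.89% of all genes were called higher and 9.11% lower at the first step, and 3.10% and 4.21% at the second. In macrophage-like cells the shares were 3.66% and 4.84%, then 2.79% and 3.93%. The list of activators and tethers of latent TGF-beta (integrin chains, *Lrrc32*, *Nrros*, *Thbs1* and the convertase *Furin*) had 9 genes. In fibroblast-like cells 6 passed the mean, and 0 were called in either direction at either step. The largest Day 14 over Day 7 ratios were in genes under the mean, *Nrros* (1.64 against 3.67 CPM, log2 -1.16) and *Itgb8* (2.05 against 1.40 CPM, log2 0.55). In macrophage-like cells *Thbs1*, whose protein releases TGF-beta from its propeptide, was called lower at both steps, with 4059, 1858 and 761 CPM on Days 3, 7 and 14. *Itgb5*, an integrin chain gene, was called lower there on Day 14 (135 to 61.6 CPM). *Nrros*, which tethers latent TGF-beta on myeloid cells, stood at 287, 221 and 229 CPM in macrophage-like cells and at 1.68, 3.67 and 1.64 CPM in fibroblast-like cells. Its fibroblast-like values lay in the range of the macrophage markers there on each day, so they and their ratio cannot be told apart from background.

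The 7 microfibril and matrix partners all passed the mean in fibroblast-like cells. From Day 3 to Day 7, 3 were called higher (*Fbln5*, *Mfap2* and *Mfap5*), against 4.89% of all genes, and 1 lower (*Efemp2*), against 9.11%, and from Day 7 to Day 14, 1 was called higher and 1 lower. The largest ratios of the second step were those of *Efemp2*, an elastic fibre protein gene (420.3, 209.7 and 97.5 CPM on Days 3, 7 and 14), and *Mfap2*, a microfibril gene (69.2, 285 and 602 CPM). In macrophage-like cells *Fn1*, the fibronectin gene, was called lower from Day 3 to Day 7 (2101 to 916 CPM). There 3 genes (*Fbn1*, *Fbn2* and *Mfap5*) were called higher, with 51.0, 9.18 and 28.2 CPM on Day 7 against 1604, 297 and 1061 CPM in fibroblast-like cells, in the range of the fibroblast markers above. At the second step 0 were called.

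Of the 8 co-receptors and related receptors, 7 passed the mean in fibroblast-like cells and 0 were called at either step. *Bambi*, a decoy receptor gene, stood at 15.7, 15.6 and 27.3 CPM on Days 3, 7 and 14, and *Acvr2b*, an activin receptor gene, at 2.04, 1.37 and 1.80 CPM. *Tgfbr3*, the betaglycan gene, stood at 242, 244 and 242 CPM. In macrophage-like cells 1 was called higher from Day 3 to Day 7 (*Tgfbr3*, 2.09 to 8.91 CPM, again in the range of the fibroblast markers) and 0 at the second step.

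Among the 4 activin subunits and antagonists, 3 passed in fibroblast-like cells. *Fstl3*, an activin-binding protein gene, was called lower on Day 7 than on Day 3 and higher again on Day 14 (24.96, 6.75 and 16.1 CPM), and *Inhbb*, the beta-B subunit gene, was called lower on Day 14 than on Day 7 (15.8, 20.6 and 6.18 CPM). *Fst*, the follistatin gene, stood at 297, 163 and 172 CPM in fibroblast-like cells and at 1.42 to 6.77 CPM in macrophage-like cells. In macrophage-like cells 0 genes of the list were called between days, and 0 and 1 passed the mean at the first and second step.

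Of the 9 Smad mediators and inhibitors, 8 passed the mean in each class and 0 were called between days in either. *Smad7*, the feedback inhibitor gene, stood at 133, 82.8 and 108 CPM in fibroblast-like cells on Days 3, 7 and 14, and *Smad6*, another inhibitor gene, at 4.43, 2.19 and 1.61 CPM. Between the classes, *Smad7* was the 1 gene of the 8 called higher in fibroblast-like than in macrophage-like cells on Days 7 and 14, against 20.6% and 20.8% of all genes. On Day 3, 2 of the 8 (*Smad7* and *Smurf1*) were called higher, against 27.2%, and 1 (*Skil*) lower, against 22.3%, so none of these counts stood above the shares over all genes.

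Of the 10 TGF-beta target genes, 9 passed the mean in fibroblast-like cells. Those called went in both directions at each step, and 4 stayed within 2-fold at each. From Day 3 to Day 7, 2 were called higher (*Acta2*, *Tagln*) and 3 lower, among them *Ccn2* and *Timp1*, of 9 that passed. From Day 7 to Day 14, 1 was called higher (*Ccn2*, 35.9 to 106 CPM) and 4 lower, among them *Acta2*, *Tagln* and *Lrrc15*. The largest ratios of that step were those of the contractile genes *Acta2* (119, 282 and 18.8 CPM on Days 3, 7 and 14) and *Tagln* (18.9, 107 and 23.3 CPM). The median of this list was log2 -0.46 at that step over its 10 genes, the gene under the mean included. It stands beside -0.16 over the genes that passed the mean, so the 2 medians are over unlike sets. In macrophage-like cells 6 passed at the first step, of which *Acta2* and *Cthrc1* were called higher, against 3.66% of all genes, and 3 lower, among them *Tgfbi* and *Timp1*, against 4.84%. At the second step 7 passed, of which 0 were called higher, against 2.79%, and 4 lower (*Tgfbi*, *Timp1*, *Acta2* and *Lrrc15*), against 3.93%. *Tgfbi*, which encodes a matrix protein induced by TGF-beta, stood at 1452, 642 and 248 CPM on Days 3, 7 and 14, above its fibroblast-like level on each day. On Day 7 *Cthrc1* stood at 30.2 CPM against 1130 CPM in fibroblast-like cells, and *Lrrc15* at 8.84 against 346 CPM. Both lay in the range of the fibroblast markers and cannot be told apart from background there. *Acta2*, at 22.6 against 282 CPM, and *Timp1*, at 53.9 against 800.2 CPM, lay above that range. It covers background from fibroblast-like cells only, and the pericyte-like cluster was led by contractile genes such as *Myh11*, *Mylk* and *Tagln*. *Acta2* in macrophage-like cells was thus not separated from background.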

How the data were processed

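Skin wounds of 3 time points, 1 library each, were measured by droplet single-cell RNA-seq (Chromium 3′). The authors deposited raw UMI counts per gene and barcode, made with Cell Ranger 6.0.0 on mm10 per the submitters' processing notes, and the annotation release is not given in the sources used here. Groups were the days in the sample labels.

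Barcodes were kept from 200 genes and 500 UMIs upward, and with no more than 10% of UMIs in mitochondrial genes. Simulated doublets served to remove, per library, a share of 0.5 of an expected rate of 0.8% per 1000 barcodes. Counts were scaled to 10000 per cell, and 2000 variable genes without the 10 members and the pathway genes gave 30 principal components and 30 Leiden clusters (resolution 1). A cluster was named where at least 3 and at least a share of 0.5 of a class's markers were found in at least 10% of cells and stood at least 1 log2 above the clusters' quantile of 0.25. This naming rule was adjusted after the clusters were seen, so a difference from the study's cell types may come from the rebuilt names. The arithmetic of the clustering was made exact after values of the members were seen, so that reruns give the same clusters, which moved the borders of clusters, and a small macrophage-like cluster high in *Inhba* was then no longer separate. Clusters with low UMIs or leading genes of another class stayed unnamed. So did clusters whose second class scored at least 0.75 of the first, unless their leading genes held markers of the first class and none of the second.

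Levels are CPM, the UMIs of a gene per 1000000 UMIs of its class in a library, with exact Poisson 95% intervals. Ratios have exact conditional binomial intervals, and shares of cells were taken after thinning to 500 UMIs, with Clopper-Pearson intervals. Genes were called at 2-fold with a mean of at least 5 CPM. With 1 library a day there was no test. On simulated Poisson counts for Day 14 over Day 7 in fibroblast-like cells, run on 9248 genes, the intervals covered the set fold in 96.5% of 200 changed genes. These counts had no variation between cells, clusters or libraries, so this checks the arithmetic of the intervals and not their fit to the data. The members and lists were chosen with earlier results of these data known. Genes named were the 10 members, the 3 genes most like each ligand, the 2 genes of each list with the largest ratio of Day 14 over Day 7 in fibroblast-like cells, and beside these, genes chosen after their values were seen: those called in a list, and *Tgfbr3*, *Fst* and *Smad7*. The values of 1 gene of the target list are not reported here. Gene coordinates are from GENCODE on mm10, and promoter sequences from RefSeq on GRCm38.p6. The alternatives tried were other scalings, filters, doublet rates, resolutions, random starts, thinning depths and class definitions.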

Additional observations from a re-analysis of the deposited data

How the results depend on the processing

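With 1 library per day, no library could be left out and no replicate spread exists, so the alternatives change only the processing. Of 227 recounts over the 10 genes, of genes called or with the larger share of cells, 216 stayed within 1.5 times and 11 moved. Scaling without the 50 most abundant genes gave 1 higher rather than 0 from Day 3 to Day 7 in macrophage-like cells, and 2 lower rather than 1 from Day 7 to Day 14. Giving each cell equal weight gave 2 lower rather than 1 from Day 3 to Day 7 and 2 higher rather than 1 from Day 7 to Day 14 in fibroblast-like cells. A mitochondrial limit of 5% gave 2 lower in fibroblast-like cells at the first step and 2 lower in macrophage-like cells at the second, and removing doublets at the full expected rate gave 2 lower in fibroblast-like cells at the first step. Clustering each library alone, and leaving out cluster 18 (chosen after seeing the data), each gave 1 lower rather than 0 in fibroblast-like cells from Day 7 to Day 14, the gene being *Inhba*. With no minimum of mean CPM, macrophage-like cells had 3 higher at the first step and 1 at the second. The cause was not tested. Another random start of the clustering, also added after seeing the data, moved 0 of these counts. Of 57 ratios of the 10 genes that passed the mean, 29 were called, 0 of these lost 2-fold under any setting run, 6 others reached it, and 9 changed sign. Scaling by the median of ratios moved the median of all genes in fibroblast-like cells by log2 0.18 and 0.18 at the first and second step, and turned the small Day 14 over Day 7 ratios of *Tgfb2* (-0.17 to 0.02) and *Ltbp3* (-0.04 to 0.15). Scaling without the 50 most abundant genes moved it by log2 0.22 in fibroblast-like and 0.253 in macrophage-like cells at the first step. Shifts of this size take the first-step calls of *Thbs1*, *Fn1* and *Tgfbi* in macrophage-like cells, and of *Efemp2* in fibroblast-like cells, under 2-fold. The recounts above cover the 10 genes and not the lists. No paired analysis was possible because each day was 1 library.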

Other observations

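Clusters that got no class name held these genes too, and are given by number. Cluster 13, whose leading genes were melanocyte and keratinocyte genes (*Dct*, *Pmel*, *Lor*) although it carried all 8 fibroblast markers, held 608 cells on Day 14 with a median of 1397.5 UMIs. It stood at 74.6 CPM (59.8 to 91.9) of *Ltbp4* and 236 CPM (209 to 266) of *Tgfbr2* on that day, and at 119 CPM (71.7 to 186) of *Inhba* on Day 3. Cluster 10, led by haemoglobin genes with all 10 macrophage markers, held 1031 cells on Day 7 with a median of 838 UMIs. It stood at 93.3 CPM (75.3 to 114) of *Tgfb1*, 62.2 CPM (47.7 to 79.8) of *Tgfbr1* and 12.0 CPM (6.22 to 21.0) of *Inhba*. Cluster 25, led by *Siglech*, *Ccr9* and *Dntt*, held 98 cells on Day 7 and stood at 85.2 CPM (53.4 to 129) of *Tgfb1* and 85.2 CPM (53.4 to 129) of *Tgfbr1*.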
